A study of Homo sapiens with 2 samples.

Results

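Replication-dependent histone genes were examined in poly(A)+ RNA of HEK293T, a line of human embryonic kidney origin with the large T antigen of SV40. Members were chosen by name: any gene, pseudogenes left out, whose symbol in the annotation is that of an H1-1 to H1-6, H2AC, H2BC, H3C or H4C gene or of an older HIST1H to HIST4H name, and whose Ensembl identifier is in both deposited tables. This gave 35 members among 57736 listed genes: 6 of class H1, 9 of H2A, 10 of H2B, 5 of H3 and 5 of H4. The annotation held 66 such names in all. The other 31 carry identifiers that the tables do not use, so 25 of them were not analysed here and 6 were found through their transcript identifiers and are given apart from the members. None of these 31 is an H1 gene, so the H1 total below covers all 6 names of its class. The totals of H2A, H2B, H3 and H4 each cover only part of their class, and not to the same extent.

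Both libraries, replicate 1 and replicate 2, came from wild-type HEK293T cells of 1 group, heated for 20 min at 43 °C and returned to 37 °C for 6 h before lysis, as the labels give it. The study's text describes a longer heating at 43 °C with a shorter recovery. For the 6 h recovery it refers to the heat shock treatment without restating a time. It may therefore mean that longer heating, which would differ from the labels. The study set them against unheated cells, which are not analysed here, so the values describe the cells after recovery and no change with heat was measured. Replicate 1 held 22529715 expected counts (reads assigned to genes by the quantifier, rounded per gene) and replicate 2 held 26890063. The replicates were lysed separately. The methods call repeats biological replicates in their account of the 4C experiments, a contact assay, and do not say whether these libraries were separate cultures, so the tests below measure the spread between these 2 libraries, which may be technical. Of 12 measured cell type markers, 8 were detected: the neuronal genes NEFM, UCHL1 and INA, the kidney regulators PAX2 and EYA1, the keratins KRT8 and KRT18 and the fibroblast collagen COL1A1 (24.1 and 20.9 TPM), while the neuronal gene STMN2 and the kidney regulator PAX8 had 1 count in each library, the hepatocyte gene ALB had 1 and 3 counts, and the leukocyte gene PTPRC was listed at 0 in both libraries.

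Replication-dependent histone genes supply the core histones H2A, H2B, H3 and H4 and the linker histone H1 that package newly made DNA, and they are transcribed mainly in S phase. Most sit in clusters, have no introns and give mRNAs that end just past a conserved stem-loop, which the stem-loop binding protein SLBP holds, in place of a poly(A) tail. Some of these genes can also give longer transcripts that are polyadenylated at a downstream signal. Replacement variants, such as H3.3 and H2A.Z, come from separate genes, mostly with ordinary polyadenylated mRNAs. Because these libraries were made from poly(A)+ RNA, they measured the histone RNA carried through that selection and not the whole histone mRNA pool. In bulk RNA, fewer cells in S phase and less histone RNA per cell cannot be told apart.

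The sequence that stands in for the poly(A) signal was read first, since it is what sets these genes apart from other genes. The GRCh37 sequence was searched over 200 bases after each stop codon for 16 bases made of GG, 3 pyrimidines, TTT, 2 bases other than G, A, 3 purines and CC. A match was found in all 35 members and in 28 of the 31 other genes with such names (90.3%). In the members it started 23 to 68 bases after the stop (median 37). The form of the search was loosened after some members were first missed, so the full count follows in part from that choice. On the same chromosomes the search matched 2 of 4080 other protein-coding genes (0.049%), and both of these, H3-4 and H3-7, are histone H3 genes that the naming rule did not take. The matches took 5 forms, and 1 member is shown for each, with the stem-loop in capitals and 5 bases on either side.
H2BC18: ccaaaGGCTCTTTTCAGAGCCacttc
H2BC12: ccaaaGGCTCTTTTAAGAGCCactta
H4C3: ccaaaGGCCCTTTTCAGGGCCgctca
H2AC11: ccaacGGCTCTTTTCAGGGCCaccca
H2AC20: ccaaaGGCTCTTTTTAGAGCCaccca
The form of H2BC18 (chr1:149783440-149783455, minus strand) was carried by 21 members. The form of H2BC12 (chr6:27114145-27114160, minus strand) was carried by 7 members and the form of H4C3 (chr6:26104545-26104560, plus strand) by 5, which were the 5 H4 genes. H2AC11 (chr6:27101294-27101309, plus strand) and H2AC20 (chr1:149858941-149858956, plus strand) each had a form of their own. Of the 6 base pairs of the stem, all 6 could form in 34 members and 5 in 1 member, H2AC11.

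A pair of motifs was common in the promoters. Of the 35 members, 31 were matched by symbol in the RefSeq promoter table (GRCh38.p14, 250 bases before to 50 after the start). These are not separate promoters, since H2AC7 and H3C4 matched the same entry and facing genes share bases, so that the 31 lie in 24 stretches that do not overlap. The letters TATAAA, on either strand, were found in 21 of these 31 (67.7%), against 11.5% of all 35116 promoters of the table. The search took no account of position, and a match on the other strand may belong to the facing gene. The only match of H2BC4, for example, is the TATAAA of H2AC6. The letters CCAAT, on either strand, were found in 28 (90.3%), against 34.6% of all promoters. Both motifs were in 19 members (61.3%), against 4.58% of all promoters. The promoter of H2BC12, the member of highest level, is shown with these letters in capitals (GRCh38.p14, chr6:27146809-27147108, minus strand).
H2BC12: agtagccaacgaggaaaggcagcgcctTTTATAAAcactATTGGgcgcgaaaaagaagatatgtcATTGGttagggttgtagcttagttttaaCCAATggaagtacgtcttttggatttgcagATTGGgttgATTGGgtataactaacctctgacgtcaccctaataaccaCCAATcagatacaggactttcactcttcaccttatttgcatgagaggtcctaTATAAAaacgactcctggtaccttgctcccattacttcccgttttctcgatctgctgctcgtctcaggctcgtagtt
In it, matches of TATAAA overlapped between the strands at 1 place, and such matches were counted once per promoter.

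Histone RNA was a small part of these libraries. Levels are given as TPM (the deposited scale per transcript length on which genes can be compared). The 35 members summed to 238 TPM in replicate 1 and 213 TPM in replicate 2, which is 226 ± 17.7 TPM (SD, n = 2) or 0.0226% ± 0.00177 of all TPM. In expected counts they took 2405 of replicate 1 and 2561 of replicate 2. A member was called detected when both libraries had a TPM of 1 or more. By this rule 18 of 35 members (51.4%) were detected, against 63.8% of 19391 protein-coding genes and 26.3% of all listed genes. The median level of the members was 1.25 TPM, against 6.19 TPM for protein-coding genes.

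The levels were very uneven. H2BC12 and H4C3 together gave 55.1% of the members' TPM in replicate 1 and 49.1% in replicate 2, and the 5 highest members gave 72.8% ± 2.50 (SD, n = 2). A mean TPM of at least 10 was reached by 6 members, 14 lay from 1 to 10, and 15 were under 1. H2AC1 and H2BC1 had 0 counts in both libraries, which allows up to 3 counts, or 0.133 CPM (counts scaled to the library total) in replicate 1 and 0.112 CPM in replicate 2, for counting error only. The order of the members was much alike in the 2 libraries (Spearman rho 0.96 across the 35 members, which share their depth and clusters). Among the 20 highest members there were 19 pairs of neighbours in this order, and in 2 of them the quantifier's credibility bounds on TPM did not overlap in either library. These were H2BC12 over H4C3 and H4C3 over H2BC18, so that below H4C3 no member stood clear of the next by this measure.

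**Figure D1:**
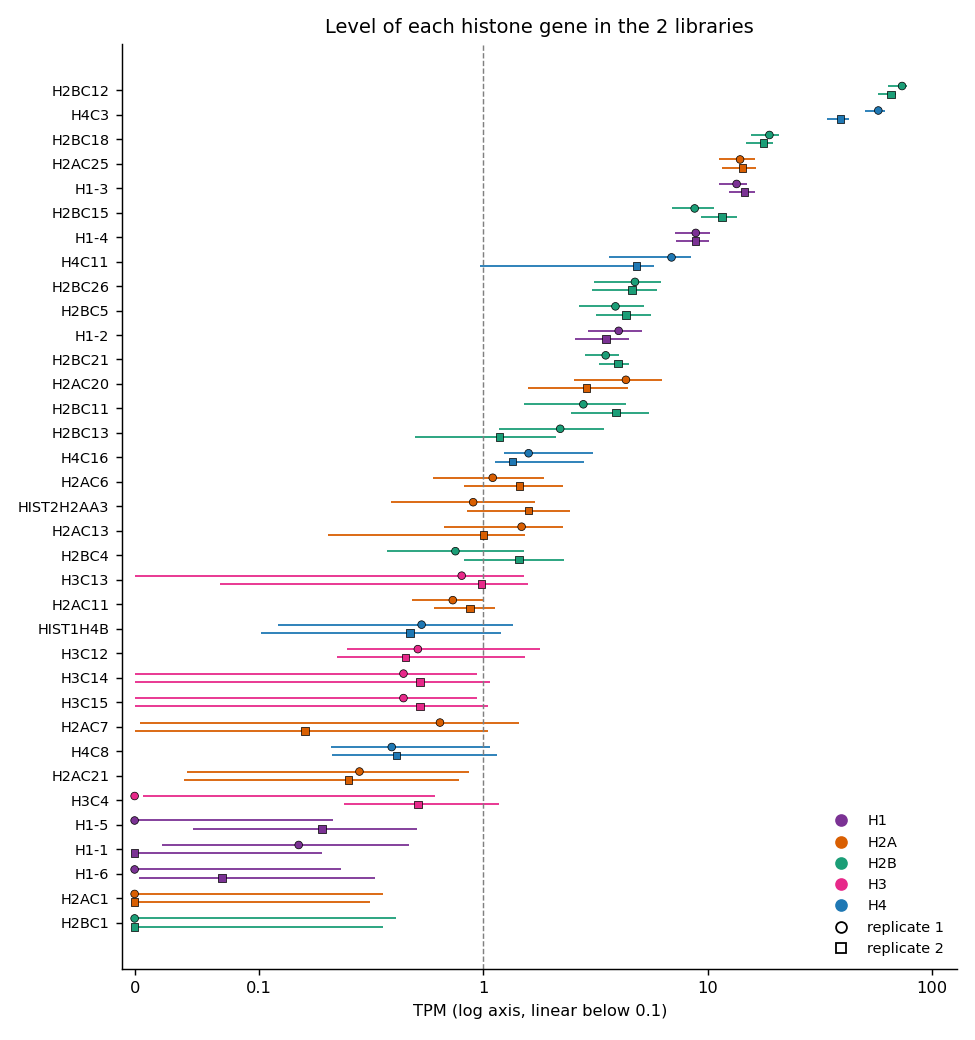
TPM of each of the 35 histone genes in replicate 1 (circles) and replicate 2 (squares), ordered by mean TPM and coloured by class, on a log axis that is linear below 0.1; lines are the quantifier's credibility bounds and the dashed line marks a TPM of 1. H2BC12 and H4C3 stand above all other members in both libraries, and the 5 H3 genes lie at or under 1 TPM.

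H2B genes led the measured members. H2BC12 (ENSG00000197903, chr6:27114140-27114634, minus strand, GRCh37) was at 73.6 TPM in replicate 1 and 65.6 TPM in replicate 2, from 728 and 727 expected counts (exact Poisson 95% intervals 676 to 783 and 675 to 782). It stood at the 90.3rd and 88.7th percentile of protein-coding genes in the 2 libraries. H2BC18 (ENSG00000203814, chr1:149754245-149783928, minus strand) followed in this class at 18.9 and 17.7 TPM. H2BC15 was at 8.75 and 11.6 TPM. Lower, H2BC26 was at 4.74 and 4.61 TPM, H2BC5 at 3.88 and 4.32 TPM, H2BC21 at 3.51 and 3.97 TPM, and H2BC11 at 2.79 and 3.91 TPM. H2BC13 was at 2.20 and 1.18 TPM. H2BC4 passed 1 TPM in replicate 2 but not in replicate 1, at 0.75 and 1.44 TPM. In all, 8 of the 10 H2B members were detected. H2BC1, the H2B gene best known from testis, was listed at 0.

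H4 genes came next, through a single member. H4C3 (ENSG00000197061, chr6:26104161-26104565, plus strand) was at 57.7 TPM in replicate 1 and 39.1 TPM in replicate 2, from 386 and 298 counts (exact Poisson 95% intervals 348 to 426 and 265 to 334). H4C3 lies inside the annotated span of H2BC4 on the opposite strand, and which strand the counting used is not stated. H4C11 was at 6.90 and 4.81 TPM. Since 92.1% of the 50-base sequences of H4C11 also occur in H4C12, a gene that was not analysed here, its value may hold reads of H4C12. H4C16, alone on chromosome 12, was at 1.59 and 1.35 TPM. HIST1H4B, at 0.53 and 0.47 TPM, was under 1 in both libraries.

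Among the linker histones, H1-3 (ENSG00000124575, chr6:26234440-26235215, minus strand) was highest, at 13.5 and 14.6 TPM. H1-4 was at 8.85 and 8.83 TPM, and H1-2 at 4.01 and 3.52 TPM. These 3 genes, which encode somatic H1 subtypes, were the detected members of the class. The remaining 3, H1-1, H1-5 and H1-6, the last known from testis, had 3 counts or fewer in each library. H1 members shared none of their 50-base sequences with another gene, and each had a posterior SD (the spread that the quantifier gives for shared reads) of 0.

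H2A genes were led by H2AC25 (ENSG00000181218, chr1:228622478-228645574, minus strand), at 14.0 and 14.3 TPM, which lies outside the large clusters. H2AC20 was at 4.32 and 2.88 TPM. H2AC6 was at 1.10 and 1.45 TPM, and H2AC13 at 1.48 and 1.00 TPM, the latter just at the threshold in replicate 2. HIST2H2AA3 was at 0.90 and 1.59 TPM and so was not counted as detected. Of its 50-base sequences, 52.4% also occur in H2AC19, a gene that was not analysed here. Of those of H2AC13, 63.5% also occur in H2AC14. The values of HIST2H2AA3 and H2AC13 may therefore hold reads of those genes. Just inside the threshold by mean TPM were HIST2H2AA3, H2AC13 and H2BC4, and just outside it were H3C13, H2AC11 (0.73 and 0.87 TPM) and HIST1H4B. The credibility bounds of these 6 spanned 1 TPM in both libraries, so the threshold does not separate them.

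No H3 member was detected. H3C13 was highest at 0.80 and 0.98 TPM, H3C12 was at 0.51 and 0.45 TPM, and H3C14 and H3C15 were both at 0.44 and 0.52 TPM. These values rest on few reads, and all 5 H3 members had a posterior SD above 25% of the count in a library. H3C14 and H3C15 had 12.9 counts each in replicate 1 with a posterior SD of 7.53 and 7.64, and 17.3 counts each in replicate 2 with a posterior SD of 10.1 and 10.0. All 50-base sequences of H3C15 occur in H3C14, so their reads cannot be assigned to either gene. One H3 gene found through its transcript identifier, H3C10, was at 1.68 and 2.95 TPM, from 13 and 26 counts. Of the other 5 genes found in this way, H2AC17 was at 5.21 and 5.13 TPM and H2AC12 at 2.01 and 1.89 TPM, while H2AC8, H2BC10 and H2AC14 had 2 counts or fewer.

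Summed by class, H2B took 51.8% ± 2.57 of the members' TPM, H4 24.9% ± 4.60, H1 11.9% ± 1.17, H2A 10.2% ± 0.515 and H3 1.16% ± 0.339 (SD, n = 2). In TPM, H2B summed to 119 and 114 in the 2 libraries, H4 to 67.1 and 46.2, H1 to 26.5 and 27.2, H2A to 23.4 and 22.5 and H3 to 2.19 and 2.98. On TPM the order of the classes was the same in both libraries, and H4, which holds H4C3, had the widest spread. On expected counts H4 was above H1 in replicate 1 (19.3% against 14.6%) and below it in replicate 2 (14.3% against 16.01%). Genes of H2A, H2B, H3 and H4 that were not analysed are missing from these sums, while H1 is complete by the naming rule. The order of H1 and H2A rests on which genes are counted. Among the members H1 was higher (26.8 ± 0.53 TPM against 22.9 ± 0.643 TPM), whereas with the 6 genes found through transcript identifiers H2A was higher, at 30.8 and 29.5 TPM. Nucleosomes hold the core histones in equal number, whereas these shares describe the poly(A)+ RNA of the measured members and not histone output.

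**Figure D2:**
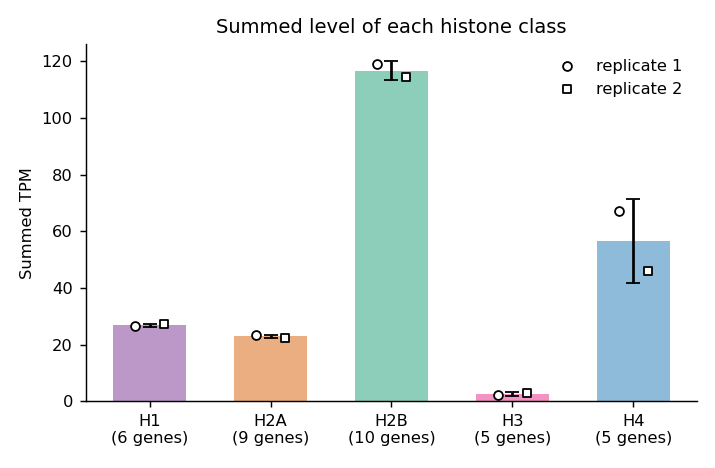
Summed TPM of the measured genes of each histone class; bars are the mean of the 2 libraries, error bars 1 SD (n = 2), and symbols the libraries. H2B is highest, at 119 and 114 TPM, and H3 lowest, at 2.19 and 2.98 TPM.

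By position, the 24 members on chromosome 6 gave 79.1% of the members' TPM in replicate 1 and 77.2% in replicate 2. They fall into a group from 25723625 to 26285866 (15 members, 91.4 and 74.9 TPM) and a group from 27093676 to 27860884 (9 members, 97.0 and 89.6 TPM). The 10 members on chromosome 1 gave 20.2% and 22.2%. Of these, 8 lie from 149754245 to 149859515 and summed to 29.5 and 28.4 TPM, and H2AC25 and H2BC26 lie from 228622478 to 228650805 and summed to 18.7 and 18.9 TPM.

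Many H2A and H2B genes face each other across a short shared promoter, and 6 such pairs had both genes among the members. The distance between the annotated starts was 214 to 247 bases. In the pair of H2AC25 and H2BC26 (229 bases), the levels differed in both libraries: H2AC25 was at 14.0 and 14.3 TPM and H2BC26 at 4.74 and 4.61 TPM. In the pair of H2BC11 and H2AC11, H2BC11 was at 2.79 and 3.91 TPM and H2AC11 at 0.73 and 0.87 TPM, but the direction turned on counts, with 22.8 and 32.1 for H2BC11 and 29.3 and 39.4 for H2AC11, which is listed at 2239 bases. On TPM, H2BC21 and H2AC20 differed less, at 3.51 and 3.97 TPM against 4.32 and 2.88 TPM, as did H2BC4 and H2AC6, and H2BC13 and H2AC13. In counts H2BC21, listed at 2223 bases, was well above H2AC20, listed at 437 bases, with 139 and 179 against 30.6 and 23.3. H2AC1 and H2BC1 were both at 0. H2BC12 faces H2AC12 at 250 bases, and H2AC12, found through its transcript identifier, was at 2.01 and 1.89 TPM against 73.6 and 65.6 TPM for H2BC12.

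The length that the tables list for each gene was compared with the length from the annotated start to the end of the stem-loop. For 21 members the listed length was shorter or at most 50 bases longer, and for 14 it was longer by more than 50 bases. The listed length rests on the authors' gene models and the other length on the annotation used here. Their difference therefore does not place the end of a transcript. H2AC11, for example, was listed at 2239 bases, while its longest transcript in the annotation used here has 493 bases. The longer 14 held 48.2% of the members' TPM in replicate 1 and 52.5% in replicate 2, and 7 of them were detected, as were 11 of the other 21. H2AC11 was longer by 1751 bases, H2BC21 by 1728, H3C15 by 1143 and H3C14 by 1139. For 24 members the tables list 1 transcript, so that the listed length is fixed by the gene model and says nothing of the reads. Of the 14 longer members, 5 had 1 listed transcript and 9 had more than 1, for which the listed length is weighted by the estimated share of each transcript. Among these 9, H2BC12 was longer than its stem-loop form by 100 and 92.3 bases, H2BC18 by 192 and 191 bases, H2BC15 by 295 and 268 bases and H4C16 by 574 and 571 bases. H4C3, by contrast, was listed 15 bases longer than its stem-loop form.

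The listed length enters the TPM through the effective length, to which TPM is scaled. H2BC21 had 139 and 179 counts, more than the 119 and 135 counts of H1-4, yet a lower TPM (3.51 and 3.97 against 8.85 and 8.83), as H2BC21 is listed at 2223 bases and H1-4 at 785. The letters AATAAA, the commonest poly(A) signal, on the strand of the gene, were found within 100 bases after the stem-loop in 3 members, within 1000 bases in 13 and within 3000 bases in 32. The 3 were H1-2 and H2BC5, at base 13 after the stem-loop, and HIST2H2AA3, at base 14, and in H4C3 the first match was at base 161. In H2BC12 it was at base 1553. These matches are a description of the sequence. How often these 6 letters occur after other genes was not counted, so the matches are not shown to be more frequent here. Where the RNAs ended was not measured.

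**Figure D3:**
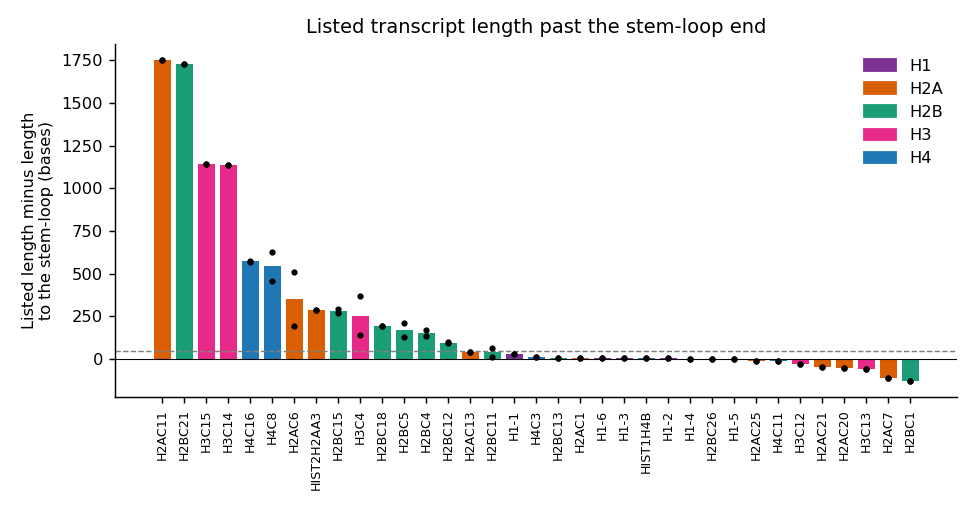
Listed transcript length minus the length from the annotated start to the stem-loop end, in bases, for each member; bars are the mean of the 2 libraries and dots the libraries, coloured by class, with a dashed line at 50 bases. H2AC11 and H2BC21 exceed their stem-loop form by 1751 and 1728 bases, and 21 members lie at or under the line.

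Shared sequence limited some values. Of the 35 members, 9 shared more than 50% of their 50-base sequences (the read length) with other genes, and 10 shared none. H2BC12 shared 57.2%, and 47.8% of its 50-base sequences also occur in ENSG00000274559. Its posterior SD was 4.96 and 4.26 counts on 728 and 727, but its value may hold reads of that gene. H2BC18 shared 38.9%, with a posterior SD of 4.60 and 5.17 counts. The posterior SD was above 25% of the count in a library for 7 members, and without them the share of TPM was 0.0221% in place of 0.0226%. In addition, 18 members overlap another annotated gene, 11 of them a gene of the opposite strand. The authors' pooled table held counts within 0.5 read of the sum of the libraries for 34 of 35 members.

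Genes that act on histone mRNA were measured in the same libraries, from lists of known roles. All 12 genes of the stem-loop processing list were detected. SLBP, which binds the stem-loop, was at 89.0 and 107 TPM. The U7 particle proteins LSM10 and LSM11 were at 46.0 and 38.2 TPM and at 6.12 and 5.12 TPM. ZNF473, a zinc finger protein of the processing complex, was at 9.74 and 9.44 TPM, and CASP8AP2 (FLASH) at 11.0 and 32.7 TPM. CPSF3, the endonuclease that cuts after the stem-loop, was at 52.6 and 54.3 TPM. The list had a median of 43.8 TPM, against 1.25 TPM for the members.

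Of the genes for histone transcription, 8 of 8 were detected, with a median of 26.6 TPM. NPAT, the coactivator of these promoters, was at 13.5 and 29.0 TPM, and HINFP, which acts at H4 promoters, at 22.0 and 18.1 TPM. All 5 genes of histone mRNA decay were detected (median 28.4 TPM), among them the exonuclease ERI1 at 6.99 and 7.62 TPM and the helicase UPF1 at 40.5 and 36.0 TPM. All 10 polyadenylation genes were detected (median 87.1 TPM), as were all 14 histone chaperone genes (median 138 TPM), of which NASP, a chaperone of H1 and H3, was at 182 and 227 TPM. The 13 genes of the S phase list were all detected (median 169 TPM), with PCNA, the sliding clamp of replication, at 178 and 183 TPM. The highest member, H2BC12, had a mean of 69.6 TPM.

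Replacement variants of H2A and H3 summed to higher levels than the members of these classes, and 11 of the 12 variants on the list were detected. The 6 H2A variants, led by H2AZ1 at 256 and 265 TPM, were 32.6 and 32.2 times the H2A members. With the 4 H2A genes found through transcript identifiers added to the members, the ratios were 24.7 and 24.6. The 4 H3 variants, led by H3-3B at 302 and 313 TPM, were 181 and 136 times the H3 members, whose sum of 2.19 and 2.98 TPM rests on uncertain counts. With H3C10 added to these members the ratios were 102 and 68.4. H3-5 was the variant not detected, at 0 and 0.06 TPM. Replacement variants are mostly polyadenylated and the members mostly are not, so the ratios hold for poly(A)+ RNA only. Part of the class is also not among the members. Other RNAs without a poly(A) tail were also measured. RN7SK was at 41.2 and 34.6 TPM, RN7SL2 at 36.4 and 16.9 TPM and the telomerase RNA TERC at 3.09 and 3.21 TPM. Of 10 such RNAs on the list, only 5 were found among the listed genes, and 3 of these were detected.

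**Figure D4:**
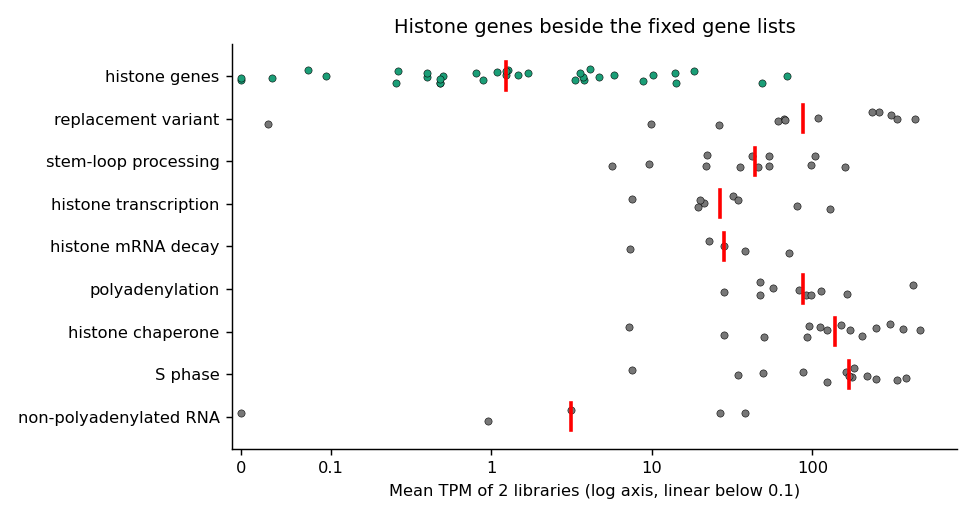
Mean TPM of the 2 libraries for each histone gene (green) and for the genes of 8 lists (grey), on a log axis that is linear below 0.1; red bars are medians. The median of the histone genes, 1.25 TPM, lies under that of every list, the nearest being the RNAs without a poly(A) tail at 3.15 TPM.

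The replicates were then compared gene by gene, which compares these 2 libraries and not conditions. An exact two-sided binomial test on rounded counts with edgeR TMM library shares was run on the 19714 genes whose counts summed to 10 or more, with Benjamini-Hochberg adjustment over all of them. Of the 25 members tested, 2 (8%) were called at an adjusted p of at most 0.05, against 42.2% of all genes. The calls were also counted by depth. Of the 9 members whose counts summed to 100 or more, 2 were called, against 39.2% of all genes with 100 to 1500 counts, and of the 16 below 100 counts 0 were called by the exact test (0 at an unadjusted p under 0.05), against 11.3% of all genes with 10 to 99 counts.

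Replicate 1 had the higher level for both called members, a direction called for 20.1% of all genes, and replicate 2 for 0 of them, against 22.1%. H4C3 had a log2 ratio of replicate 2 to replicate 1 of -0.65 (exact binomial test, adjusted p = 2.3e-08). H2BC12 had a log2 ratio of -0.28 (exact binomial test, adjusted p = 0.00067). The 25 tested members had a median log2 ratio of -0.10, against 0.02 for all tested genes, 11 of them were above 0, and all 25 lay within 2-fold. The median size of the log2 ratio, sign aside, was 0.26 for the members and 0.27 for all tested genes.

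The ratio of these libraries moved with the GC content of the transcripts. Across all tested genes the Spearman rho of the log2 ratio and GC content was -0.54, and across the 25 tested members it was -0.08, as a description of genes that share both libraries. GC content of the members ran from 41.3% to 65.3% (median 56.1%), and the median of the tested members was 56.4%, against 49.3% for all tested genes. With the trend on GC content removed, H4C3 kept a log2 ratio of -0.56 (exact binomial test, adjusted p = 6.0e-06). H2BC12 then had a log2 ratio of -0.08 (exact binomial test, adjusted p = 0.48) and was no longer called, and the background fell to 27.6%.

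**Figure D5:**
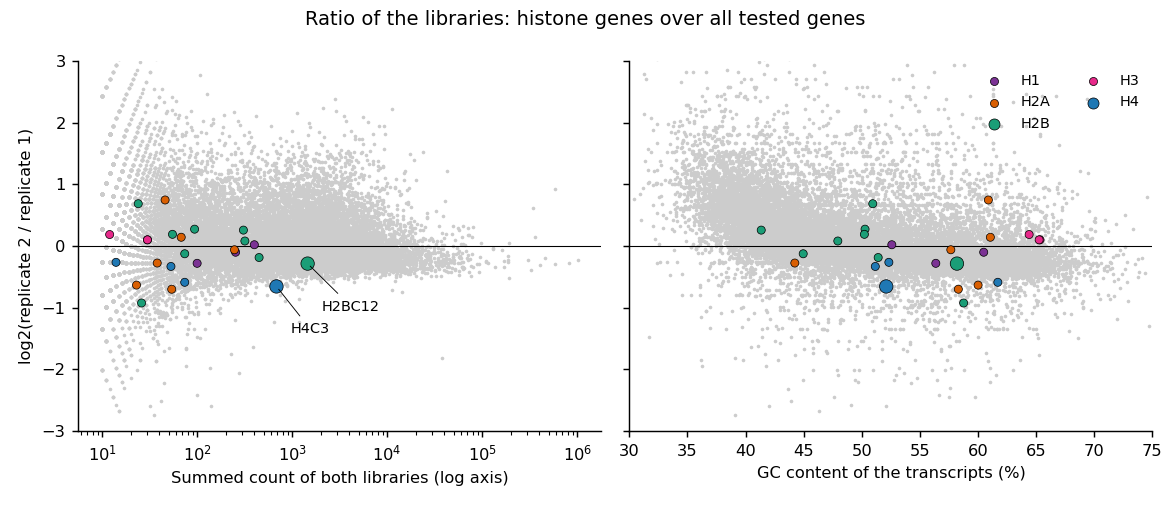
Log2 ratio of replicate 2 to replicate 1 (TMM-scaled, cut at 3 in either direction) against the summed count (left, log axis) and against GC content (right) for all tested genes (grey) and the 25 tested histone genes (coloured by class; large symbols are called). H4C3 and H2BC12, with log2 ratios of -0.65 and -0.28, are the called members.

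The lists were tested in the same way. The background of 42.2% pools all depths. It was 11.3% at 10 to 99 counts and 39.2% at 100 to 1500 counts, both under the pooled share. Genes with more than 1500 counts were therefore called more often than 42.2%, and the calls below are not read as an excess over it. Of the stem-loop processing genes, 9 of 12 were called, 4 higher in replicate 2 and 5 higher in replicate 1, and 4 of 12 with the GC trend removed. CASP8AP2 had the widest ratio of these, at 1.46 on the log2 scale (exact binomial test, adjusted p = 5.3e-185), and 0.79 with the trend removed, while CPSF2 turned from 0.35 to -0.13. Of the transcription genes 5 of 8 were called and 4 with the trend removed, with NPAT at 0.97 and then 0.31. Of the replacement variants 7 of 11 tested were called, all higher in replicate 1, and 5 with the trend removed, with H1-10 at -0.44 and then -0.18. Of the decay, polyadenylation, chaperone and S phase genes, 3 of 5, 8 of 10, 10 of 14 and 9 of 13 were called, and 3, 5, 9 and 11 with the trend removed. Counts of these genes were mostly higher than those of the members, such as 928 and 3104 for CASP8AP2, and the part of depth in the number of calls was not tested.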

How the data were processed

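Poly(A)+ RNA of 2 replicate libraries of 1 group was sequenced by the authors with 50 bp reads. The submitters' processing notes name Trimmomatic 0.36, STAR 2.6.1c and RSEM 1.3.1 with GRCh37, whereas the methods name featureCounts. The authors deposited expected counts, in which multi-mapped reads are shared among genes, TPM values scaled to effective length, and FPKM values per library, which were used in 1 alternative. In the labels the molecule field reads genomic DNA, although their protocol is one for poly(A)+ RNA. Deposited pooled counts served as a check.

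Gene names, positions and stop codons came from GENCODE release 44 lifted to GRCh37, and 96.1% of identifiers matched. GC content and 50-base sequences came from its transcripts. Counts were rounded and tested with an exact binomial test in scipy 1.17.1, with TMM shares from edgeR 4.0.16. Log2 ratios took a pseudocount of 0.5. The GC trend was the median ratio in 50 classes of genes. DESeq2 1.42.0 gave size factors. The test was tried on simulated counts.

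Members and lists were chosen with earlier results of these data known. Members were named by level (the 20 highest and the 3 highest of each class), by nearness to the detection threshold and by uncertain counts. H1-1, H1-5, H1-6, H2AC7, H3C4 and the genes found by transcript identifier were named after their values were seen. The level of 1 replacement variant is not reported here.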

Additional observations from a re-analysis of the deposited data

How the results depend on the processing

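The number of detected members, 18, became 29 at a TPM of at least 0.1 and 7 at a TPM of at least 5, and 18 to 20 with 1 library left out. It was 15 at an FPKM of at least 1 and 21 at an expected count of at least 10. On expected counts in place of TPM, the members' share fell from 0.0226% to 0.0101%, the 5 highest members took 66.7%, and the classes took 56.4% (H2B), 16.8% (H4), 15.3% (H1) and 1.79% (H3). With members of uncertain counts left out, H2A took 9.64% and H3 0%, since no H3 member was left. With the 6 genes found through transcript identifiers added, an alternative chosen after seeing the data, H2A took 12.8% and H3 2.11%. With 1 library left out the share of TPM was 0.0213% to 0.0238%, the 5 highest members took 71.0% to 74.5%, and the classes took 50.0% to 53.6% (H2B), 21.7% to 28.2% (H4), 11.1% to 12.8% (H1), 9.82% to 10.6% (H2A) and 0.919% to 1.40% (H3). The 2 calls became 1 with the GC trend removed and 3 with no filter on low counts, where H3C4 (0 and 8.65 counts) was added. Library totals, DESeq2 size factors and a minimum of 100 counts called the same 2 members. The median log2 ratio stayed between -0.12 and -0.07 under every alternative. No paired analysis was possible because both libraries belong to 1 group. Leaving out a library leaves no test between libraries. Below about 100 summed counts, ratios of single members are limited by depth.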
